A study of Rattus norvegicus with 4 samples.

Results

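Presynaptic vesicle and release genes are described here in neuron-astrocyte co-culture before and after the neurons were washed off. They are 45 genes of the transmitter release machinery, listed by symbol and matched to array probes by gene name or RefSeq transcript. Of the 45, 44 had at least 1 probe among the 35731 genes of the array, and Napb had none. In all, 29 members could be tested in a fit over 21366 genes.

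Primary astrocytes from cortex of newborn Wistar rats were grown as a monolayer, and hippocampal neurons of embryonic mice were plated onto them. RNA of the intact co-culture is called CC. RNA harvested once the neurons had been detached with a stream of ice-cold buffer, the cold jet, is called CC-CJ. Astrocytes that never met neurons were given cold jet as well (AA-CJ). All RNA was measured on 4 Agilent rat arrays read in 2 colours, 2 for CC-CJ versus CC and 2 for CC-CJ versus AA-CJ. CC-CJ carried the dye Cy3 on all 4 arrays, and CC or AA-CJ carried Cy5. No dye swap was made, and dye and RNA cannot be told apart within an array, in M values and in folds of CC over CC-CJ alike. The neuronal mRNA is thus mouse mRNA read by rat probes, and how well each probe binds it was not tested. The labels do not say whether equal replicate numbers came from the same cultures, so p-values measure only the spread between these arrays.

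A nerve terminal packs transmitter into synaptic vesicles, docks them at the active zone and fuses them with the membrane when calcium enters. SNARE proteins drive the fusion, synaptotagmins sense the calcium, and Rab proteins, synapsins and scaffold proteins hold vesicles near the release site. Dynamin, amphiphysin and synaptojanin then retrieve the membrane. Several of these proteins belong to families that work in secretion and membrane traffic in other cells, astrocytes included.

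In CC-CJ compared with CC, 12 of the 29 tested members were lower at an adjusted p of 0.05 (limma, Benjamini-Hochberg over all genes tested), and none was higher. Over all genes tested, 2.26% were lower and 0.0983% were higher. The 12 were Snap25, Rab6b, Syn2, Slc32a1, Gad2, Nrxn2, Rab3a, Dnm1, Syt5, Rab3b, Sv2a and Nrxn3, with mean M values (log2 of Cy3 over Cy5, so that negative values are lower in CC-CJ) from -1.96 to -0.44. The median M of the tested members was -0.36, beside -0.02 over all genes tested. Of the 29, 13 passed the filter on dim probes through CC alone, so that the choice of members tested was tied to their CC signal. Snap25, Gad2, Rab3a, Rab3b and Nrxn3 were among these. Only Nsf and Rims2 had a positive mean M there, at 0.08 and 0.01. Stx1a, Syt1, Unc13a, Unc13c, Rab3c and Slc17a6 lay between -0.42 and -0.04 and were not called. Among all 21366 genes tested, 1918 had passed through CC alone, a smaller part than among the members. The share of members called and the 2.26% of all genes are therefore not compared like for like. Without replicate 2 of CC-CJ versus CC, 6 of the 12 still passed, which were Snap25, Rab6b, Syn2, Slc32a1, Gad2 and Nrxn2. In bulk RNA, fewer neurons and less RNA per neuron cannot be told apart.

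**Figure D1:**
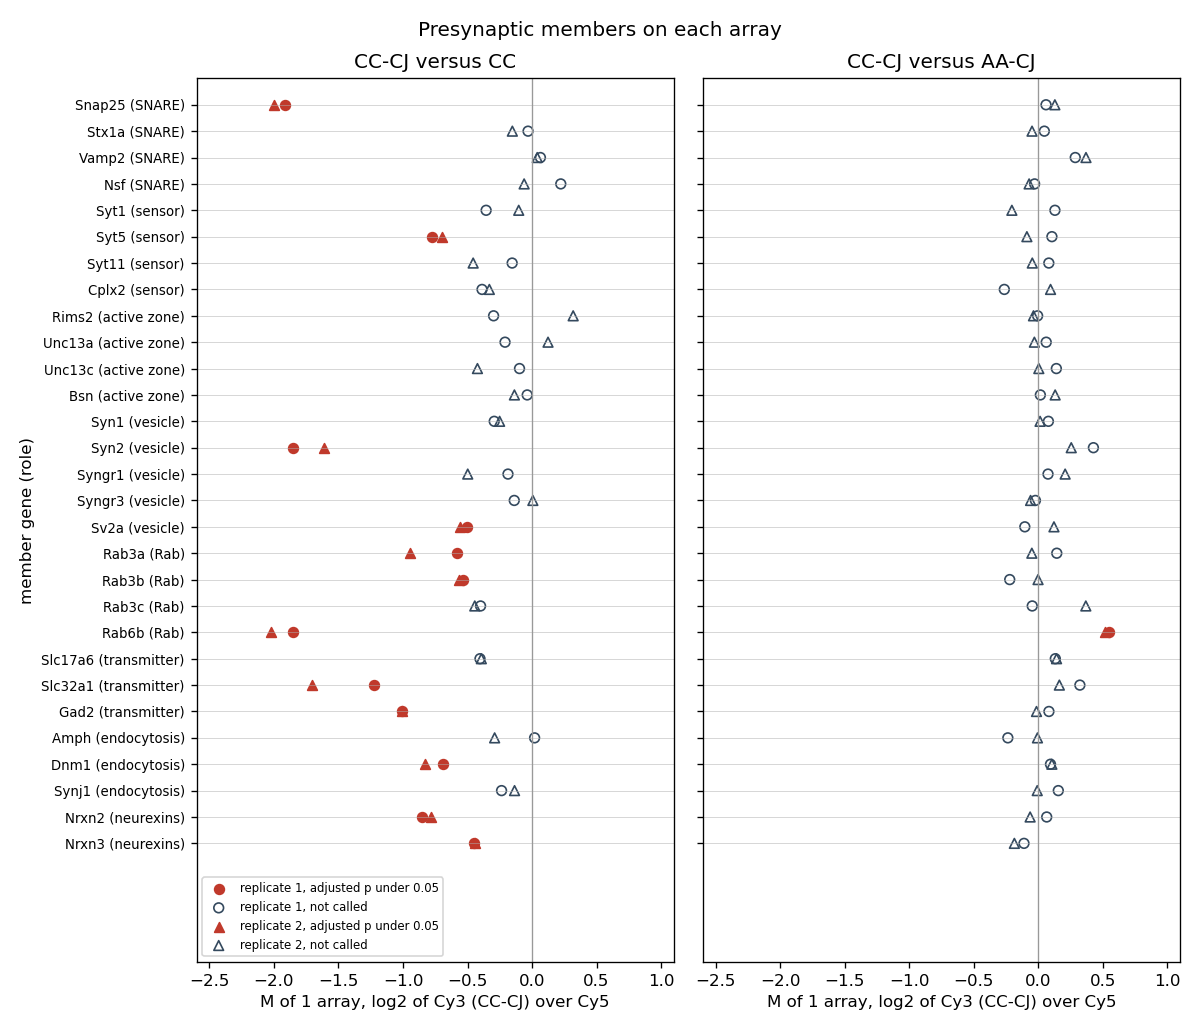
M of each tested member on each array (log2 of Cy3 over Cy5), ordered by role, for CC-CJ versus CC (left) and CC-CJ versus AA-CJ (right), with filled symbols for members that passed an adjusted p of 0.05 in limma. On the left 12 members are filled, with Snap25 at -1.92 and -1.997 and Rab6b at -1.86 and -2.02 farthest from 0, and on the right Rab6b is the only one, at 0.55 and 0.52.

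For Rab6b, Syn2 and Slc32a1, which followed Snap25 in the size of the loss, the 250 bases before the gene start are shown, together with those of Vamp2, which was not lower after cold jet. Snap25 had no entry among the promoters used. The sequences are those of RefSeq on GRCr8, for rat, whereas the neurons came from mouse. Capitals mark GGGCGG, the GC box bound by Sp1, and CAGCACC, a core of the element bound by the repressor REST, on either strand. All 4 genes lie on the plus strand, Rab6b at chr8:112573973-112574222, Syn2 at chr4:149858669-149858918, Slc32a1 at chr3:167686995-167687244 and Vamp2 at chr10:54292539-54292788.
Rab6b: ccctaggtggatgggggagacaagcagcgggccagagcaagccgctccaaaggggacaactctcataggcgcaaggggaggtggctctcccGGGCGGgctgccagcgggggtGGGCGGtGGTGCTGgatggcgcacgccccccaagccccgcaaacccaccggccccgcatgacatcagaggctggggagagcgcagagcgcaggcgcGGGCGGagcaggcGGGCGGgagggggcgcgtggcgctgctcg
Syn2: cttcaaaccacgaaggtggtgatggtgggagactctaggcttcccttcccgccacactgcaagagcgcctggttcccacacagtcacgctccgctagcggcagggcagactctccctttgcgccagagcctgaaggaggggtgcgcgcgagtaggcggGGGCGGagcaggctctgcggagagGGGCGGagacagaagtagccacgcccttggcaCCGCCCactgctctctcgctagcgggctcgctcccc
Slc32a1: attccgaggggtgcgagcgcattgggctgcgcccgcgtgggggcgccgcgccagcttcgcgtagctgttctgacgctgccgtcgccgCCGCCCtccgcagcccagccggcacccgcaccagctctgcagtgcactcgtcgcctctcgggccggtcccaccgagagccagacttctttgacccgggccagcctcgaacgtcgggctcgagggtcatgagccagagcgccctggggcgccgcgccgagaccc
Vamp2: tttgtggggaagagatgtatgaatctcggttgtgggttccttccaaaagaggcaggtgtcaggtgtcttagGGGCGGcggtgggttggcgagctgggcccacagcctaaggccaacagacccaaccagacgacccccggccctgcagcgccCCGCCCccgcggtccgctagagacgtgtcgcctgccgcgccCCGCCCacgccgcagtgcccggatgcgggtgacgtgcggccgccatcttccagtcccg

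Promoters were found for 37 of the 45 members, 38 windows in all, since Unc13b had 2. Over the window of 250 bases before to 50 bases after the start, GGGCGG or its reverse complement stood in 28 of the 38, and in 33.1% of all 33469 promoters. CAGCACC or its reverse complement stood in 10 of the 38, those of Bsn, Rab3c, Rab6b, Rph3a, Sncb, Sv2b, Syn1, Syp, Syt4 and Unc13a, and in 6.78% of all promoters. TATAAA, the TATA box, was found for Gad1 alone, and in 14.2% of all promoters. In the sequences printed, Rab6b held 4 GC boxes and 1 REST core, Syn2 and Vamp2 held 3 GC boxes each, and Slc32a1 held 1. A GC box was thus present in Vamp2 as in the 3 members that were lower. Matches of letters in a window are a description only.

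Among the SNARE proteins and their recycling factors, Snap25 was lower and Stx1a, Vamp2 and Nsf were not called. Snap25 encodes the SNARE of the plasma membrane that is typical of neurons. Its normalised signal was 395 and 414 in CC, 105 and 104 in CC-CJ on the same arrays, with 71.5 and 68.4 for AA-CJ, so that the groups did not overlap. The M values were -1.92 and -1.997, with a mean of -1.96 (standard error 0.0809, adjusted p = 0.000112 in limma). Its probe (rn4, chr3:124893776-124893835) did not rise well above background in the CC-CJ channel of these arrays, so that Snap25 was at least 3.88-fold higher in CC.

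Vamp2, the vesicle SNARE that pairs with Snap25, showed no such drop. Its signal was 663 and 713 in CC, 694 and 733 in CC-CJ, with 575 and 580 for AA-CJ. Over its 2 tested probes, which had 0.14 and 0.24 and -0.01 and -0.16, the mean M in CC-CJ versus CC was 0.05, with a 95% interval from -0.14 to 0.24. Vamp2 was well above background in every RNA on every array. Stx1a, the syntaxin of the same complex, had M values of -0.03 and -0.15, and Nsf, the ATPase that takes spent SNARE complexes apart, had 0.22 and -0.06. Stx1a and Nsf had signals from 71.8 to 91.1 in AA-CJ and CC and were close to background there. Vamp1 was not tested, since it was above background on some arrays of a group only.

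Among the calcium sensors, Syt5 was lower, and Syt1, Syt11 and Cplx2 were not called. Syt5, a synaptotagmin, had signals of 1510 and 1500 in CC, 881 and 928 after cold jet, and 872 and 1020 in AA-CJ. CC was thus apart from both other RNAs, which overlapped. The mean M in CC-CJ versus CC was -0.74 (standard error 0.0881, adjusted p = 0.00844 in limma), and without replicate 2 of that comparison the adjusted p was 0.0542. Syt1, the main calcium sensor of fast release, had M values of -0.36 and -0.10 (adjusted p = 0.362 in limma). Syt11, a synaptotagmin that binds no calcium, had -0.15 and -0.46, and the complexin Cplx2, which holds SNARE complexes before fusion, had -0.39 and -0.33. Syt4, Doc2b, Rph3a and Cplx1 were not well above background in any channel.

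No member of the active zone was called in any comparison. Rims2, a scaffold that binds Rab3 and calcium channels, had M values of -0.30 and 0.32 in CC-CJ versus CC, and the priming factor Unc13a had -0.21 and 0.12, so that the arrays differed in sign for both. Unc13c, another priming factor, had -0.10 and -0.42. Bsn (Bassoon), a giant scaffold protein, had -0.04 and -0.14, with signals of 143 and 141 in CC and 150 and 130 in AA-CJ. Rims1, Unc13b and Pclo were not well above background in any channel. Hence only 4 of the 7 members of this role gave a value, 3 of them through CC alone.

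Among the proteins of the vesicle, Syn2 and Sv2a were lower, and Syn1, Syngr1 and Syngr3 were not called. Syn2 encodes a synapsin, which tethers vesicles in reserve. Its signal was 438 and 410 in CC, 121 and 134 in CC-CJ on the same arrays, with 67.1 and 69.0 for AA-CJ. CC exceeded CC-CJ on both arrays, and the probe was not well above background in AA-CJ. The mean M in CC-CJ versus CC was -1.73 (standard error 0.0964, adjusted p = 0.000299 in limma). Syn1, the other synapsin measured, had M values of -0.29 and -0.25 (adjusted p = 0.169 in limma). Its signal of 106 and 98.8 in CC was near that of 93.6 and 84.1 in AA-CJ, and its probe was well above background in both.

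Sv2a, a vesicle glycoprotein, had 352 and 523 in CC, 248 and 355 in CC-CJ, with 276 and 280 for AA-CJ. Although CC and CC-CJ overlapped between arrays, Sv2a was lower in CC-CJ within each, with M values of -0.51 and -0.56 (adjusted p = 0.035 in limma). Without replicate 1 of CC-CJ versus CC the adjusted p was 0.0959, and without replicate 2 it was 0.325. The synaptogyrins Syngr1 and Syngr3, which span the vesicle membrane, had mean M values of -0.34 and -0.07. Syp (synaptophysin), Sv2b, Sv2c, Sncb and Sncg were not well above background in any channel, in CC as little as in the other RNAs.

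All 4 Rab members had negative M values on both CC-CJ versus CC arrays, and Rab6b, Rab3a and Rab3b were called. Rab6b, a Rab protein of Golgi-derived transport that is enriched in brain, had signals of 1360 and 1610 in CC, 377 and 395 in CC-CJ, with 199 and 192 for AA-CJ. The mean M was -1.94 (standard error 0.0847, adjusted p = 0.000151 in limma). The probes of Rab6b differed. The one at rn4 chr8:108191918-108191977 had -2.73 and -2.83, the one at chr8:108188188-108188247 had -0.99 and -1.22, and a further one at chr8:108188448-108188507, with -0.02 and -0.17, was too dim to be tested. Both tested probes were lower in CC-CJ, with adjusted p-values of 6.31e-05 and 0.0014 over all probes in limma.

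Rab3a, Rab3b and Rab3c are Rab proteins of the synaptic vesicle. Rab3a had signals of 159 and 198 in CC and 106 and 103 in CC-CJ, with a mean M of -0.76 (adjusted p = 0.0196 in limma). Rab3b read 120 and 114 against 83.0 and 76.9, with a mean M of -0.55 (adjusted p = 0.0301 in limma), and was at least 1.46-fold higher in CC. Rab3c had M values of -0.40 and -0.44 and was not called (adjusted p = 0.136 in limma). Rab3a lost its call without replicate 2 of CC-CJ versus CC (adjusted p = 0.187 in limma), and Rab3b lost it without replicate 1 (0.0918) or replicate 2 (0.27). Of the 2 probes of Rab3b, one passed by itself with a mean of -0.76 and the other, with -0.34, did not.

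Of the members that make or load transmitter, Slc32a1 and Gad2 were lower after cold jet, and Slc17a6 was not called. Slc32a1, the vesicular transporter of GABA and glycine, had signals of 333 and 506 in CC, 143 and 155 in CC-CJ, with 108 and 113 for AA-CJ. Its M values were -1.23 and -1.71, a wider gap than for Snap25, with a mean of -1.47 (standard error 0.125, adjusted p = 0.00194 in limma). Gad2, one of the enzymes that make GABA, had 179 and 175 in CC, 88.9 and 87.3 in CC-CJ, with 68.6 and 73.9 for AA-CJ. Its mean M was -1.01 (adjusted p = 0.00141 in limma), and it was at least 2.01-fold higher in CC, as its probe did not rise well above background after cold jet. Gad1, the other such enzyme, was not tested, with 3 probes too dim in all groups. Of the vesicular glutamate transporters, Slc17a6 had M values of -0.40 and -0.39 (adjusted p = 0.06 in limma), and Slc17a7 was not well above background in any channel. Whether the transporters of the 2 transmitters differed in loss was not tested.

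Of the members of endocytosis, Dnm1 was lower, and Amph and Synj1 were not called. Dnm1, the dynamin of neurons, had signals of 198 and 219 in CC, 123 and 124 in CC-CJ, with 97.3 and 88.4 for AA-CJ. Its mean M was -0.76 (standard error 0.0825, adjusted p = 0.00573 in limma), and without replicate 2 of CC-CJ versus CC the adjusted p was 0.0682. Amph (amphiphysin), which recruits dynamin, had M values of 0.02 and -0.29. Synj1, a lipid phosphatase that helps to uncoat vesicles, had -0.24 and -0.14 as a mean of 3 probes that disagreed in sign. One of them was at 0.12 and 0.51, and the others were between -0.59 and -0.32.

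Both neurexins among the members, adhesion proteins of the presynaptic membrane, were lower after cold jet. Nrxn2 had signals of 2200 and 2170 in CC, 1220 and 1260 after cold jet, and 1170 and 1310 in AA-CJ. CC-CJ and AA-CJ thus overlapped for Nrxn2, and its mean M was -0.82 (standard error 0.083, adjusted p = 0.00436 in limma). One of its probes had -1.32 and -0.97, and the other, with -0.38 and -0.61, did not pass alone (adjusted p = 0.0546 in limma over probes). Nrxn3 had 101 and 90.3 in CC and 74.3 and 66.4 in CC-CJ, with a mean M of -0.44 (adjusted p = 0.043 in limma). Without replicate 1 of CC-CJ versus CC, Nrxn3 had an adjusted p of 0.149, and without replicate 2 one of 0.381.

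Which members the astrocyte cultures held without neurons was read from AA-CJ. This is bulk RNA, in which the microglia markers Tyrobp and C1qb and the oligodendrocyte lineage gene Pdgfra were also well above background. Detection there thus does not show which cells expressed a member. Some signals were low, as for Syn1 (93.6 and 84.1) and Dnm1 (97.3 and 88.4), where the floors of detected probes were 65.3 and 71.8. In CC, 29 members were well above background on both arrays, and in AA-CJ 15 were. Over all genes these shares were 59.1% and 53.9%. The 15 were Vamp2, Syt5, Syt11, Cplx2, Bsn, Syn1, Syngr1, Syngr3, Sv2a, Rab6b, Slc32a1, Amph, Dnm1, Synj1 and Nrxn2. A further 11 members were well above background on both CC arrays and on neither AA-CJ array, beside 2.8% of all genes, and these were Snap25, Stx1a, Rims2, Unc13a, Unc13c, Syn2, Rab3b, Rab3c, Slc17a6, Gad2 and Nrxn3. Nsf, Syt1 and Rab3a were above background on 1 of the AA-CJ arrays. Of the 15 members detected in AA-CJ, Syt5, Sv2a, Rab6b, Slc32a1, Dnm1 and Nrxn2 were lower after cold jet all the same.

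CC and AA-CJ, both in Cy5 but on different arrays, were compared through CC-CJ. In this comparison 8 members were higher in CC and none was lower, beside 2.58% and 0.0796% of all genes tested. Here too, more of the members than of all genes had passed the filter through CC alone. The 8 were Rab6b (log2 difference 2.47), Syn2 (2.08), Snap25 (2.05), Slc32a1 (1.71), Gad2 (1.04), Dnm1 (0.86), Nrxn2 (0.82) and Syt5 (0.75), with adjusted p-values from 0.000201 to 0.033 in limma. All 8 are among the 12 lost with cold jet, but both comparisons use the same CC arrays. Rab3a, with 0.81 (adjusted p = 0.0556 in limma), Sv2a with 0.54, Rab3b with 0.44 and Nrxn3 with 0.30 did not pass. Vamp2 was at 0.28 (adjusted p = 0.272 in limma). Snap25 and Syn2 were not well above background in AA-CJ. Folds of CC over AA-CJ were also taken from the normalised signals, with AA-CJ raised to the floor of detected probes where it was lower. They were 5.64 for Snap25, 6.11 for Syn2 and 2.49 for Gad2. These signals come after loess, which uses both dyes, so that CC-CJ enters them too. In the fit the folds were smaller, at 4.15, 4.215 and 2.06, so the signals give no lower bound. Without replicate 2 of CC-CJ versus CC, 5 members passed, and Dnm1, Nrxn2 and Syt5 did not.

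Between CC-CJ and AA-CJ, the cultures after cold jet with and without a past of co-culture, Rab6b was the only member called. It was higher in CC-CJ. By the 2 SD limits of the study, Rab6b was both higher here and lower with cold jet. The study left out such genes, since they could be neuronal RNA left over. Which cells gave the higher Rab6b signal in CC-CJ was not tested. Of all genes tested, 1.94% were higher and 1.16% were lower in CC-CJ, while no member was lower. The signals of Rab6b on these arrays were 290 and 275 for CC-CJ against 199 and 192 for AA-CJ, with M values of 0.55 and 0.52 (standard error 0.0847, adjusted p = 0.031 in limma). This call rested on 1 probe, with 0.97 and 1.00, since the other tested probe had 0.12 and 0.04 (adjusted p = 0.665 in limma over probes). With arrays centred on the median it was at 0.05, where the median of all genes was -0.49. Rab6b did not pass without either CC-CJ versus AA-CJ array, with adjusted p-values of 0.135 and 0.0835 in limma. Syn2 had M values of 0.43 and 0.26 (adjusted p = 0.102 in limma), and its probe was well above background for CC-CJ on both arrays and for AA-CJ on neither. Vamp2 had 0.29 and 0.37 (adjusted p = 0.0761 in limma). The median of the tested members was 0.04, beside -0.02 over all genes tested.

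**Figure D2:**
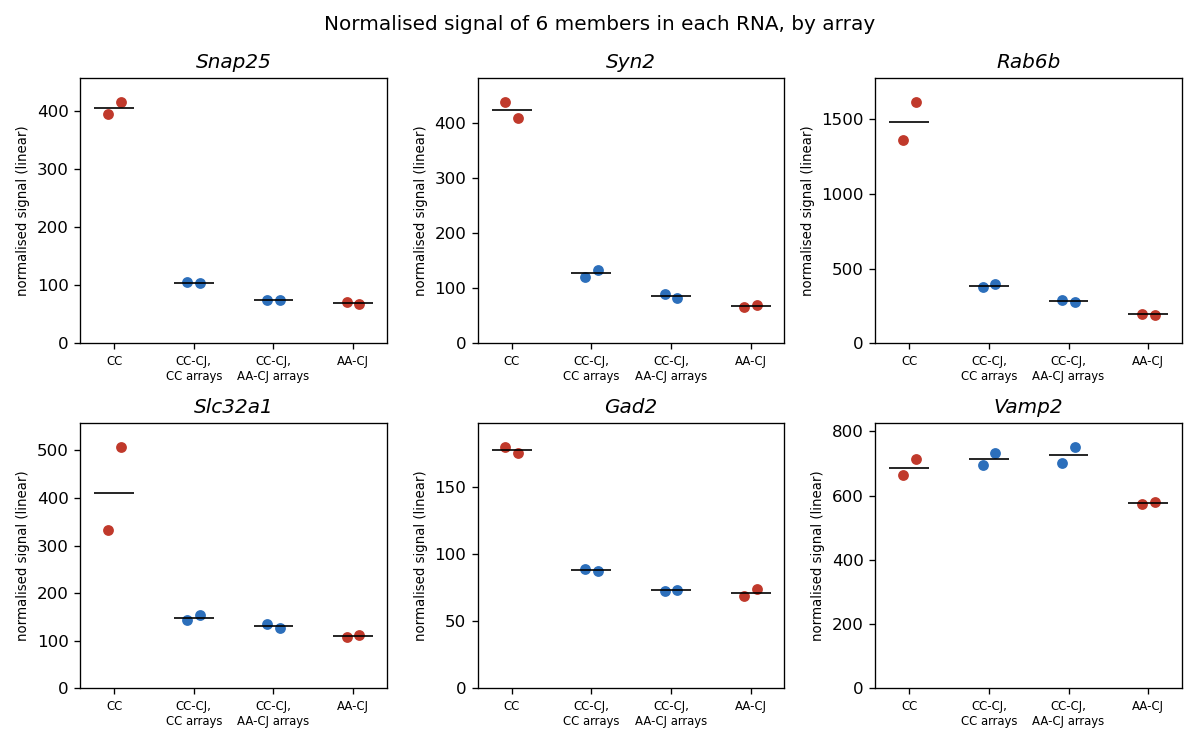
Normalised signal of 6 members on a linear scale from 0 in CC, in CC-CJ on both kinds of array and in AA-CJ, with a point per array and a line at the geometric mean. For Snap25 the points lie at 395 and 414 in CC and at 68.4 to 105 in all other RNAs, while Vamp2 stays between 575 and 750 throughout.

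How much member mRNA remained after cold jet was expressed as the CC-CJ signal above AA-CJ in percent of the CC signal above AA-CJ. It was computed for the 5 members that CC showed well above background and that exceeded AA-CJ by 2-fold or more, so that it describes members chosen for a high CC signal. Snap25 had 10.3% and 10.2% left in replicates 1 and 2, Rab6b had 15.3% and 14.4%, and Syn2 had 14.6% and 19.0%. Slc32a1 had 15.2% and 10.8%, and Gad2 had 18.4% and 13.2%. The mean over the 5 was 14.1% ± 0.876 (SD, n = 2). The probes of Snap25 and Gad2 were well above background in neither CC-CJ nor AA-CJ, so their shares rest on signals near background and were not ranked against the other members.

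This share depended on which arrays gave the CC-CJ signal. The 2 kinds of array carried CC-CJ in the same dye, yet Snap25 read 105 and 104 beside CC but 74.5 and 74.8 beside AA-CJ. Syn2 read 121 and 134 against 90.3 and 82.4, and Gad2 read 88.9 and 87.3 against 72.7 and 73.3. All 5 members used for the share read higher on both arrays shared with CC, as did 54.7% of all genes called lower in CC-CJ than in CC and 7.98% of all genes tested. Of the members not called, 29.4% did so. Before normalization the log2 difference between the kinds of array was 0.01 for Snap25, 0.10 for Syn2 and -0.03 for Gad2, against 0.48, 0.56 and 0.27 after loess. For Rab6b it was 0.25 before and 0.45 after. With the CC-CJ signal taken beside AA-CJ, the share left fell to 1.4% for Snap25, 5.09% for Syn2, 6.87% for Rab6b, 7.78% for Slc32a1 and 1.52% for Gad2, with a mean of 4.53%. Arrays centred on the median in place of loess gave 4.95%.

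**Figure D3:**
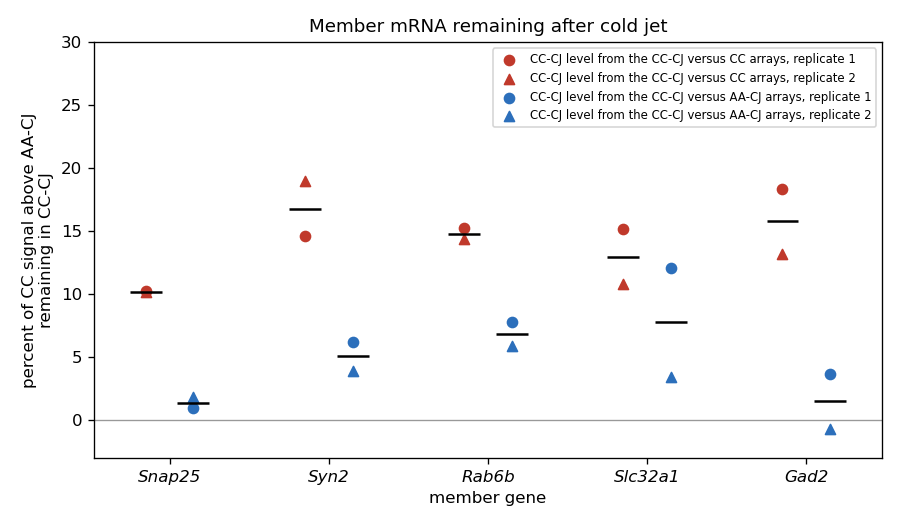
Percent of the CC signal above AA-CJ that remained in CC-CJ for 5 members and both replicates, with the CC-CJ signal read beside CC (red) or beside AA-CJ (blue), and lines at the means. The red means lie between 10.2 and 16.8 percent and the blue means between 1.4 and 7.78 percent.

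Of 44 other genes of release outside the 45, 42 had a probe and 28 were tested, and with cold jet 6 were lower and none was higher. Cadps, a priming factor of dense-core vesicles, was lower by a log2 of -1.69, Apba2 (Mint2), an adaptor that binds Munc18, by -1.49 and the clathrin adaptor Snap91 by -1.10, with adjusted p-values from 0.000194 to 0.00519 in limma. Cadps and Apba2 also exceeded AA-CJ in CC-CJ, by 1.30 and 0.58 (adjusted p = 0.00148 and 0.0252 in limma). Of the 28, 7 were higher in CC than in AA-CJ and none was lower. Snap91 had passed the filter through CC alone.

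Homologues of the members that serve membrane traffic in most cells were set beside them. Of 48 such genes, among them Snap23, Vamp3, Stx4, Napa, Dnm2 and Rab3d, 44 were tested, and none was called in any of the 3 comparisons. Their mean M in CC-CJ versus CC ranged from -0.42 to 0.22, with a median of 0.02. Snap23, the homologue of Snap25, had 0.06 and -0.06, and Dnm2, the homologue of Dnm1, had 0.17 and 0.15. All 44 were well above background in AA-CJ, beside 15 of the 44 members with a probe and 53.9% of all genes. As the list was chosen to hold genes of most cells, this detection is no separate result.

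**Figure D4:**
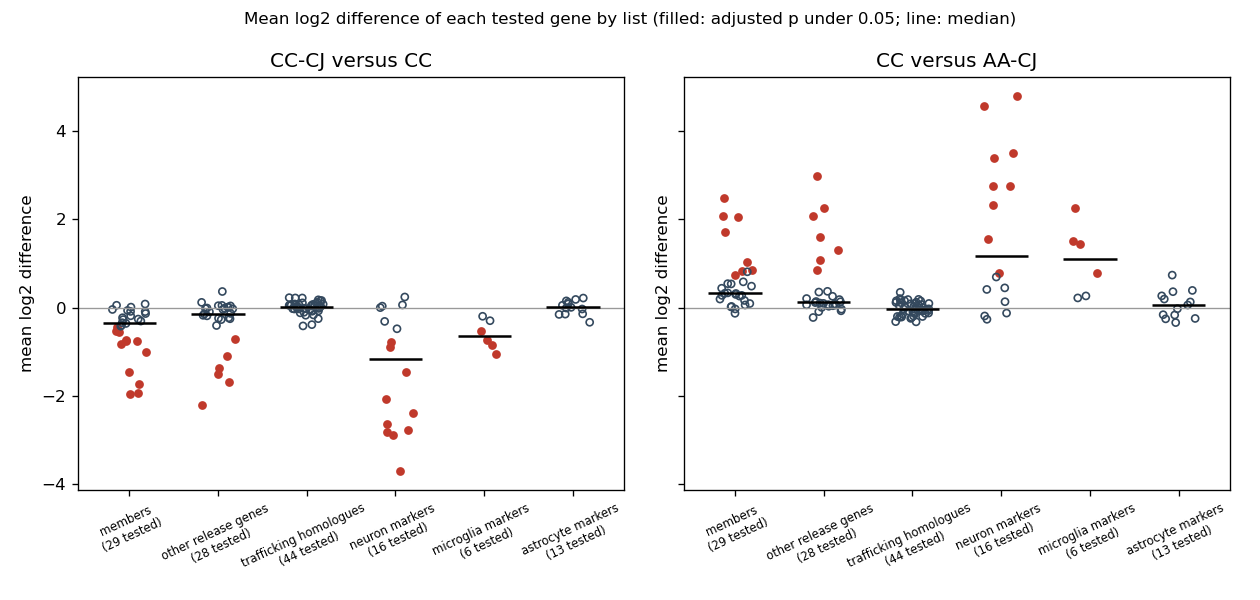
Mean log2 difference of each tested gene in CC-CJ versus CC (left) and CC versus AA-CJ (right) for 6 gene lists, with filled points at an adjusted p under 0.05 in limma and a line at the median. The member median lies at -0.36 on the left and the homologue median at 0.02.

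Some markers of neurons, microglia and the oligodendrocyte lineage were also called lower after cold jet, and no astrocyte or endothelial marker was. Of 16 neuron markers outside the 45, 10 were lower after cold jet, with a median of -1.17 over the list and Dcx lowest at -3.70, and 4 were higher than in AA-CJ, led by Gap43 at 2.03. Nefm and Map2 (-0.48 and -0.31) were not called. Stmn2, Eno2, Uchl1 and Thy1 did not fall, with -0.000939, 0.24, 0.06 and 0.03. Stmn2 alone read 7570 and 8100 in AA-CJ, so that the sum below is in large part signal that was not lost. Their summed signal was 29158 and 29392 in CC, 16971 and 16400 in CC-CJ on the same arrays, with 16413 and 17073 for AA-CJ, where 13 of the 16 were well above background. Of 6 microglia markers tested, 4 were lower after cold jet (C1qa by -1.06, C1qb by -0.84, Tyrobp by -0.74 and Aif1 by -0.53), and the same 4 were higher in CC than in AA-CJ. Over all genes tested, 2.26% were lower and 2.58% were higher in these comparisons. Aif1 and Csf1r, the latter not called, had passed the filter through CC alone. In CC-CJ, where Rab6b exceeded AA-CJ, C1qa and Tyrobp did so too, by 1.19 and 0.77 (adjusted p = 0.00259 and 0.00955 in limma). The summed signal of the 6 was 2259 and 2229 in CC, 1410 and 1276 in CC-CJ on the same arrays, with 808 and 925 for AA-CJ. Of 9 genes of the oligodendrocyte lineage, Mag and Sox10 were lower after cold jet, with -0.82 and -1.12. Mag, too, had passed through CC alone. Of 13 astrocyte markers, 12 were well above background on both AA-CJ arrays and none was called with cold jet, while Aqp4 exceeded AA-CJ in CC-CJ by 0.51 (adjusted p = 0.031 in limma). Neither of the 2 endothelial markers tested was called. The part of these cells in the member values was not tested.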

How the data were processed

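Rat Agilent arrays with 2 colours were measured for 2 replicates of each comparison. The authors deposited spot intensities written by Feature Extraction 9.5.1.1, beside Agilent's log10 ratio of Cy5 over Cy3. The series' table of processed values deposited by the authors was found to hold log2 of Cy5 over Cy3, as its correlation with M per array was 0.90 to 0.952 once turned. The study names OLIN and OSLIN for normalization, which were not run here.

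Mean signals were corrected by normexp (offset 50) and normalised by loess within arrays (span 0.3) in R 4.3.3 with limma 3.58.1. Control and outlier spots were left out. A probe entered the fit if all arrays of CC-CJ, of AA-CJ or of CC showed it well above background, which 24863 of 41012 did. Genes are means over kept probes. lmFit and eBayes ran over 4 arrays, with 2 residual and 4.71 prior degrees of freedom, and Benjamini-Hochberg adjustment ran over 21366 genes. Signals are linear values after loess and Aquantile. Folds of CC over AA-CJ from signals set the mean of CC against the floor of detected probes or the dim probe's own signal, whichever is higher. They are not lower bounds. Probe positions are those of rn4 in the scanner files. The number of arrays limits the precision.

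The members and lists were chosen with earlier results of these data known. All members with a probe are named. Of each other list, up to 5 genes per comparison are named with the largest difference among those past an adjusted p of 0.05 with equal signs on both arrays. Homologues and markers named beyond this were chosen after their values were seen. Values of some of the other release genes are not reported here. The steps were tested on simulated data. Alternatives for background, normalization, source of values, filter, arrays and replicates were tried. All arrays lay on 1 slide and in 1 scan. Probe sequences and protein sequences were not used here.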

Additional observations from a re-analysis of the deposited data

How the results depend on the processing

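The 12 members lower after cold jet became 8 to 13 under other background corrections, Agilent's ratio and the series' values. No filter, probes in place of genes and the 2 SD limits of the study stayed in this range too. There were fewer with 1 CC-CJ versus CC array left out. Of the 12, plain subtraction kept 7, without Nrxn2, Rab3a, Rab3b, Sv2a and Syt5. Agilent's ratio kept 8, without Nrxn2, Rab3a, Sv2a and Syt5, and the 2 SD limits had Synj1 in place of Nrxn3. On probes detected in all channels 6 were lower, and Snap25, Syn2, Gad2, Rab3a, Rab3b and Nrxn3 were not tested. Median centring gave 20, but it moved the median of all genes to -0.59 (CC-CJ versus CC) and -0.49 (CC-CJ versus AA-CJ), with 13701 genes called lower in place of 483 in the first and 12532 lower and 708 higher, in place of 247 and 415, in the second, where 7 members were higher and 7 lower. In CC-CJ versus CC, plain subtraction called 186 genes lower, Agilent's ratio 269 and probes detected in all channels 278. In CC-CJ versus AA-CJ, 3 genes were lower and 61 higher with plain subtraction, 8 and 69 with Agilent's ratio, 77 and 259 with offset 16 and, with the replicate block, 35 and 135. Rab6b, the 1 member above AA-CJ in CC-CJ, became 0 under plain subtraction, offset 16, Agilent's ratio and no filter, 2 with the series' values, and 0 to 1 with 1 array left out. The 8 members higher in CC than in AA-CJ became 5 on probes detected in all channels and 5 to 8 with 1 array left out. No named member that was called changed sign under any alternative.

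With the replicate number as a replicate block, 9 members were lower after cold jet, 0 were above AA-CJ in CC-CJ and 5 were higher in CC than in AA-CJ, and 297 of all genes were lower in CC-CJ versus CC in place of 483. Under it Sv2a, Rab3b and Nrxn3 (CC-CJ versus CC), Rab6b (CC-CJ versus AA-CJ) and Syt5, Dnm1 and Nrxn2 (CC versus AA-CJ) lost their calls. The deviations of equal numbers correlated at -0.11 over genes, whereas raw CC-CJ signals correlated slightly better between equal numbers (0.9988 and 0.9983) than between unequal ones (0.9968 and 0.9957). Whether the numbers pair the cultures was not settled. A crossed replicate block, chosen after seeing the data, gave 12, 1 and 9 members and 767 lower genes.

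The median over members in CC-CJ versus CC (-0.36) was -0.73 under plain subtraction, -0.54 with offset 16, -0.67 with median centring, -1.01 with Agilent's ratio, -0.42 with the series' values, -0.17 without a filter and -0.44 to -0.36 with 1 array left out. In CC versus AA-CJ (0.33) these were 0.68, 0.60, 0.48, 0.99, 0.50, 0.16 and 0.33 to 0.47, and 0.48 with probes detected in all channels. In CC-CJ versus AA-CJ (0.04) plain subtraction gave 0.13 and median centring 0.0948. The share remaining (14.1%) was 33.7% without subtraction of AA-CJ, 9.18% with plain subtraction of background, 10.0% with offset 16, 15.9% without Aquantile, 4.95% with median centring and, in an alternative chosen after seeing the data, 4.53% with the CC-CJ signal read beside AA-CJ. The causes of these moves were not tested. Dim probes limit the values of 13 members detected in no channel.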
